A study of Mus musculus with 48 samples.

Results

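Collagens are the main structural proteins of the extracellular matrix, and the genes of the collagen chains were described here across all libraries of a mouse study of dilated cardiomyopathy. The members were the 43 genes of 31920 in the deposited ventricle tables whose symbols had the form Col, a number, a and a number. They comprised 11 fibrillar chains, the 6 type IV chains of basement membranes and 26 other chains. The others were 6 type VI and related beaded-filament chains, 9 fibril-associated chains, 3 short-chain collagens, 4 transmembrane collagens, the 2 multiplexins (types XV and XVIII), the anchoring-fibril chain Col7a1 and the unclassed Col28a1.

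The study sequenced total RNA of FVB mice that carried PLNR9C, a missense form of phospholamban linked to inherited dilated cardiomyopathy, and of wild type FVB mice. Phospholamban is the inhibitor of the calcium pump of the cardiac sarcoplasmic reticulum. Mice of both genotypes received JQ1 at 50 mg/kg or vehicle, which gave PLNR9C-JQ1, PLNR9C-vehicle, wild type-JQ1 and wild type-vehicle groups. JQ1 is a small molecule that displaces BET bromodomain proteins from acetylated chromatin. Each of these 4 groups was sampled as whole left ventricle at 8 weeks of age, as whole left ventricle at 20 weeks, and as pooled cardiomyocytes and pooled non-myocytes at 16 weeks, with 3 libraries in each of the 16 groups. The labels call the 8-week samples preDCM and the others DCM, wild type included. They do not give the sex of the mice, the promoter that drives the allele or the number of animals in a pool, and a missense allele cannot be checked from gene counts. The design text calls the replicates individual biologic replicates, and no pair of replicate libraries agreed within sampling noise. Reads in genes numbered 16984138 to 27086694 per 8-week library, 18415351 to 26730918 per 20-week library, 10249780 to 13146653 per cardiomyocyte library and 10041094 to 11815003 per non-myocyte library.

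A collagen molecule is a triple helix of 3 chains, which are hydroxylated and folded in the endoplasmic reticulum, secreted, trimmed and cross-linked. Types I, III and V form the fibrils that carry load between heart muscle cells, and most of them are made by fibroblasts. Type IV forms the sheet-like network of the basement membrane around cardiomyocytes and capillaries. Types XII, XIV and XVI attach to fibrils, type VI forms filaments at the cell border, and type VIII forms short-chain networks best known from vessel walls and the cornea.

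Several chains lie in pairs on the genome, which matters for reading the values of neighbours. The type IV genes are head-to-head pairs: Col4a1 and Col4a2 on chromosome 8 start 2 bases apart, Col4a4 and Col4a3 on chromosome 1 start 71 bases apart, and Col4a6 and Col4a5 on the X chromosome start 1342 bases apart in the deposited mm10 coordinates. Col3a1 (chr1:45311538-45349706, plus strand) and Col5a2 (chr1:45374331-45503282, minus strand) are neighbours with 24624 bases between them. Col1a1 lies at chr11:94936270-94951856 (plus strand), Col8a1 at chr16:57624256-57754737 (minus strand) and Col12a1 at chr9:79598991-79718678 (minus strand). The spans of 12 of the 43 chains overlapped another listed gene. Col3a1, Col4a3, Col5a2, Col9a3, Col10a1 and Col11a1 did so with a gene on the other strand, from which their reads cannot be told apart if the counting ignored strand. The sources used here do not state the strand setting.

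The 250 bases before the start are shown for 4 chains on which the results turn, a pair of fibrillar chains that were higher in PLNR9C ventricles and were not called with JQ1, and both type VIII chains, which were higher in PLNR9C ventricles and lower with JQ1. The sequences are from RefSeq (GRCm38.p6), 5′ to 3′ on the gene's strand, and the RefSeq start of Col1a2 lies 79 bases from the deposited one. Capitals mark the letters of 4 motifs searched on both strands: the CCAAT box, the Sp1 box GGGCGG, the TATA box TATAAA and the AP-1 element TGANTCA.
Col1a2, chr6:4505368-4505617, plus strand: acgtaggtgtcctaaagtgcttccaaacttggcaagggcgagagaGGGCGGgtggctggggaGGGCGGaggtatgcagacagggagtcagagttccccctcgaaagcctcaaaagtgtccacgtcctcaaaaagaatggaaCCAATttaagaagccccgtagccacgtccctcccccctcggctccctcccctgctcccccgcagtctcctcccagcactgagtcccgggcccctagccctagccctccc
Col3a1, chr1:45311288-45311537, plus strand: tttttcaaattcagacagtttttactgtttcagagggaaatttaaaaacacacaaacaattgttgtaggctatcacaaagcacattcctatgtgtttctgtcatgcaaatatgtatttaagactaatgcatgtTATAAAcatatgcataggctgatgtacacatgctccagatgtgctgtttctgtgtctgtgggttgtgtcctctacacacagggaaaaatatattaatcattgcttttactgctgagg
Col8a1, chr16:57754738-57754987, minus strand: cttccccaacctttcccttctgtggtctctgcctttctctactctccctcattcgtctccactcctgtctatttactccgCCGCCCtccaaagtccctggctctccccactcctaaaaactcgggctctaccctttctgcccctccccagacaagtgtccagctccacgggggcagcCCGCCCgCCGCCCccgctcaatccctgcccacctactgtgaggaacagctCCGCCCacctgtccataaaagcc
Col8a2, chr4:126286544-126286793, plus strand: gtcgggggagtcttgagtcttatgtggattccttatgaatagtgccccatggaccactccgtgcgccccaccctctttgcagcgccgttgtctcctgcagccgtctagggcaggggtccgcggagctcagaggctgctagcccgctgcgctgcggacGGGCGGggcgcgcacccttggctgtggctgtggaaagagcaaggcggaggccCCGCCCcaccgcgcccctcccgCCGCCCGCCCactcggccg
The Col1a2 window held 1 CCAAT and 2 GGGCGG, and the Col3a1 window held 1 TATAAA. Each type VIII window held 4 GGGCGG, of which all 4 in Col8a1 and 3 in Col8a2 lie on the other strand and read CCGCCC here, a pair of them overlapping in Col8a2. For 35 of the 43 chains the promoter table held a start under the same symbol, and the one nearest the deposited start was used. That start lay 49344 bases away for Col25a1, 299 for Col11a2 and 159 for Col7a1. The distant Col25a1 window counts among the GGGCGG and CCAAT matches below. GGGCGG occurred in 21 of these 35 windows (60.0%), against 32.7% of 32851 windows of all genes. CCAAT occurred in 12 (34.3%, against 33.8%), TATAAA in 5 (14.3%, against 12.4%) and TGANTCA in 1 (2.86%, against 6.75%). These matches describe letters and not bound sites.

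Collagen chains made up a larger part of the transcriptome in PLNR9C than in wild type samples, and the difference was larger at 20 weeks. Their share of all reads in genes was 0.894 ± 0.123% in PLNR9C-vehicle and 0.239 ± 0.0315% in wild type-vehicle ventricles at 20 weeks (SD, n = 3 each), with ranges of 0.751 to 0.966% and 0.203 to 0.262%. At 8 weeks the ranges were 0.329 to 0.388% in PLNR9C-vehicle and 0.229 to 0.250% in wild type-vehicle ventricles. In both cases the groups did not overlap. An exact permutation test of 3 against 3 cannot go below 0.10, so the shares are described and the test rests on the single chains. In a bulk library, fewer cells of a type and less RNA per cell cannot be told apart.

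The make-up of the collagen transcripts also differed between genotypes. Per length, from the deposited RPKM values (reads scaled by gene length and library total), fibrillar chains made up 48.4 ± 3.60% of the collagen total in PLNR9C-vehicle ventricles at 20 weeks and 24.7 ± 1.37% in wild type-vehicle ventricles. Type IV chains made up 25.5 ± 3.99% in PLNR9C-vehicle and 49.1 ± 2.53% in wild type-vehicle. The other chains held 26.1 ± 0.739% and 26.2 ± 1.24% in the same order of groups. So at 20 weeks type IV chains held the larger part of the collagen transcripts in wild type-vehicle ventricles and fibrillar chains the larger part in PLNR9C-vehicle ventricles. At the level of single chains in RPKM, Col3a1 led in PLNR9C-vehicle ventricles at 20 weeks with 267 ± 55.2, ahead of Col1a1 with 195 ± 27.5 and Col4a1 with 169.7 ± 41.7. In wild type-vehicle ventricles Col4a1 led with 88.7 ± 18.4, ahead of Col4a2 with 76.1 ± 13.3, while Col3a1 was at 27.96 ± 2.51. Neighbours in these orders, such as Col1a1 and Col4a1 in PLNR9C or Col4a1 and Col4a2 in wild type, lay within their spread. Orders and shares per length also depend on the gene lengths behind the RPKM values, 4698 bases for Col1a1 and 10007 bases for Col1a2. Before scaling by length Col1a2 had more reads than Col1a1 in every PLNR9C-vehicle library of 20 weeks. At 8 weeks the fibrillar part was 35.1 ± 1.68% in PLNR9C-vehicle and 27.1 ± 0.931% in wild type-vehicle ventricles, and the type IV part was 38.1 ± 1.63% in PLNR9C-vehicle and 45.8 ± 2.37% in wild type-vehicle. Col4a1 was the highest chain in RPKM in all 3 libraries of both groups at that age. With JQ1 at 20 weeks the fibrillar part was 52.5 ± 1.65% in PLNR9C and 26.8 ± 2.27% in wild type.

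**Figure D1:**
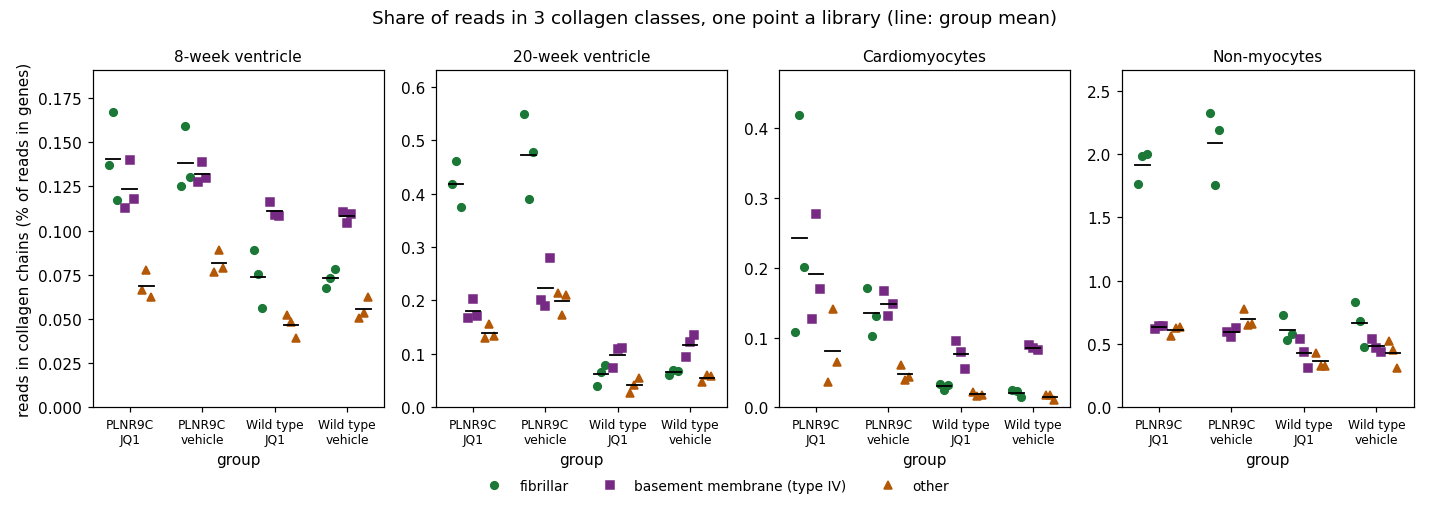
Percent of all reads in genes that fell on fibrillar, type IV and other collagen chains in each of the 16 groups (1 point a library, lines at the group means). At 20 weeks the PLNR9C-vehicle libraries sit at 0.751 to 0.966% in all and the wild type-vehicle libraries at 0.203 to 0.262%, and the non-myocyte libraries are the highest of the series.

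At 8 weeks 13 of the 35 chains tested were higher in PLNR9C-vehicle than in wild type-vehicle ventricles and none was lower. In the same comparison 14.4% of all genes tested were called, 7.86% higher and 6.49% lower (edgeR's quasi-likelihood test, Benjamini-Hochberg adjusted p under 0.05 over all genes, as throughout, with log2 fold changes given ± SE). The called chains were 6 of 8 fibrillar, 1 of 6 type IV and 6 of 21 other chains. The median log2 fold change was 0.39 over the 35 chains and 0.01 over all genes.

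Among the fibrillar chains, Col3a1, the chain of type III collagen, had 503, 636 and 525 CPM (reads scaled to a common library total, after TMM scaling) in PLNR9C-vehicle ventricles and 269, 276 and 268 CPM in wild type-vehicle ventricles. All 3 PLNR9C libraries lay above all 3 wild type libraries, and the log2 fold change was 1.03 ± 0.24 (SE, adjusted p = 0.0213). Col1a1 and Col1a2, the chains of type I collagen, had log2 fold changes of 0.84 ± 0.19 (adjusted p = 0.0197) and 0.68 ± 0.14 (adjusted p = 0.00801). The type V chains Col5a1 (0.47 ± 0.11, adjusted p = 0.00857) and Col5a2 (0.46 ± 0.12, adjusted p = 0.0143), which regulate the width of type I fibrils, rose less, as did Col27a1 (0.40 ± 0.10, adjusted p = 0.00757), a fibrillar chain of cartilage. Of the type IV chains, only Col4a4 was called (0.43 ± 0.13, adjusted p = 0.0283), while Col4a1 was at 0.21 ± 0.07 (adjusted p = 0.0579) and Col4a2 at 0.12 ± 0.07 (adjusted p = 0.27).

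Of the other chains, all 3 classical type VI chains were higher at 8 weeks, with log2 fold changes of 0.44 ± 0.10 (adjusted p = 0.0105) for Col6a1, 0.48 ± 0.11 (adjusted p = 0.00718) for Col6a2 and 0.54 ± 0.10 (adjusted p = 0.00248) for Col6a3. Among the fibril-associated chains Col14a1 had 38.8, 44.99 and 30.7 CPM in PLNR9C-vehicle and 15.1, 22.5 and 24.5 CPM in wild type-vehicle ventricles, a log2 fold change of 0.88 ± 0.21 (SE, adjusted p = 0.0194). Col16a1 (0.49 ± 0.10, adjusted p = 0.00328) and Col20a1 (0.48 ± 0.15, adjusted p = 0.0379) rose too. Col12a1 (2.19, 1.99 and 2.10 CPM in PLNR9C-vehicle and 1.58, 1.43 and 3.03 CPM in wild type-vehicle ventricles) and the type VIII chain Col8a1 (log2 fold change 0.37 ± 0.18, adjusted p = 0.215) did not pass. Col15a1 was at 0.25 and Col18a1 at 0.15 on the log2 scale, with adjusted p of 0.312 and 0.572.

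Several of the 8-week calls depended on single libraries. Without PLNR9C-vehicle replicate 2, 6 chains were called, and Col1a1 (0.69, adjusted p = 0.0695), Col3a1 (0.92, adjusted p = 0.0807), Col5a2 (0.39, adjusted p = 0.075), Col6a1 (0.35, adjusted p = 0.0518), Col14a1 (0.74, adjusted p = 0.0769), Col4a4 (0.39, adjusted p = 0.101) and Col20a1 (0.44, adjusted p = 0.131) lost their calls. Without wild type-vehicle replicate 1, 7 were called, and Col1a1 (0.80, adjusted p = 0.083), Col3a1 (1.03, adjusted p = 0.0812), Col5a2 (0.45, adjusted p = 0.0622), Col6a1 (0.40, adjusted p = 0.0551), Col4a4 (0.36, adjusted p = 0.142) and Col20a1 (0.37, adjusted p = 0.191) were lost. Col1a1 was also lost without wild type-vehicle replicate 2 (0.81, adjusted p = 0.0667), Col3a1 without wild type-vehicle replicates 2 (1.05, adjusted p = 0.0622) and 3 (1.02, adjusted p = 0.0642), and Col14a1 without PLNR9C-vehicle replicate 1 (0.87, adjusted p = 0.0568). Col4a4 and Col20a1 were lost without PLNR9C-vehicle replicate 3 as well (0.37, adjusted p = 0.102 and 0.46, adjusted p = 0.0865) and without wild type-vehicle replicate 3 (0.39, adjusted p = 0.0909 and 0.49, adjusted p = 0.0811). Summed fibroblast markers were 2261 to 2458 CPM in PLNR9C-vehicle and 1927 to 2264 CPM in wild type-vehicle ventricles, ranges that overlapped. Of the 10 markers 4 were called higher, beside 7.86% of all genes. Macrophage markers were higher for 8 of 8, and activated fibroblast markers for 0 of 7. The part of these cells in the collagen result was not tested.

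At 20 weeks 25 of the 37 chains tested were higher in PLNR9C-vehicle ventricles and 2 were lower, against 44.7% of all genes (23.3% higher, 21.4% lower). The median log2 fold change was 1.08 over the chains and 0.01 over all genes. Called higher were 7 of 9 fibrillar chains (median 2.35), 6 of 6 type IV chains (median 0.78) and 12 of 22 other chains (median 1.27). Col2a1, Col6a4, Col9a1, Col10a1, Col19a1 and Col24a1 had too few reads to be tested. Col9a2 and Col11a1 passed the filter on low counts only through the PLNR9C-vehicle libraries, where they were high. The filter thus favoured their calls in comparisons with that group.

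Type I and type III chains rose by several fold. Col1a1 had 895, 706 and 836 CPM in PLNR9C-vehicle and 109, 138 and 121 CPM in wild type-vehicle ventricles, a log2 fold change of 2.73 ± 0.28 (SE, adjusted p = 4.18e-05). Col1a2 had 1079, 888 and 927 CPM in PLNR9C-vehicle and 181, 201 and 185 CPM in wild type-vehicle ventricles (log2 fold change 2.35 ± 0.11, adjusted p = 1.69e-10). Col3a1 had 2201, 1512 and 1941 CPM in PLNR9C-vehicle and 216, 252 and 243 CPM in wild type-vehicle ventricles (log2 fold change 2.99 ± 0.36, adjusted p = 0.000151). For each of the 3, every PLNR9C library was above every wild type library.

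The remaining fibrillar chains were less uniform. Of the type V chains, Col5a2 rose by 2.49 ± 0.19 (adjusted p = 1.27e-06) and Col5a1 by 1.75 ± 0.16 (adjusted p = 3.38e-06), while Col5a3 was at 0.10 ± 0.55 (adjusted p = 0.898) with 1 PLNR9C-vehicle library high (19.9, 15.7 and 58.5 CPM). The RPKM ratio of Col5a2 to Col5a1 was 1.06 ± 0.0808 in PLNR9C-vehicle and 0.629 ± 0.118 in wild type-vehicle ventricles (SD, n = 3 each), with no overlap between the groups. Col27a1 rose by 1.52 ± 0.11 (adjusted p = 5.05e-09). Col11a1, a minor chain of cartilage fibrils, had 1.17, 1.19 and 1.02 CPM in PLNR9C-vehicle and 0.216, 0.0888 and 0.0507 CPM in wild type-vehicle ventricles (log2 fold change 3.16 ± 0.60, adjusted p = 0.000323), a low level in both. Col11a2 went against its class and was lower (log2 fold change -0.59 ± 0.22, adjusted p = 0.042), with 4.35, 5.55 and 4.66 CPM in PLNR9C-vehicle and 6.84, 5.02 and 10.1 CPM in wild type-vehicle ventricles, which overlapped. The other lower chain, the transmembrane chain Col25a1, had 0.268, 0.597 and 0.292 CPM in PLNR9C-vehicle and 1.34, 0.799 and 0.709 CPM in wild type-vehicle ventricles (log2 fold change -1.33 ± 0.51, adjusted p = 0.0435), and its call ended with scaling by library size alone (-1.07, adjusted p = 0.0874), with the replicate block (-1.32, adjusted p = 0.0566) and without PLNR9C-vehicle replicate 1 (-1.09, adjusted p = 0.162) or 3 (-1.19, adjusted p = 0.117) or wild type-vehicle replicate 1 (-0.98, adjusted p = 0.197) or 2 (-1.44, adjusted p = 0.0552). The Col11a2 call ended with scaling by library size alone (-0.33, adjusted p = 0.224) and without PLNR9C-vehicle replicate 1 (-0.51, adjusted p = 0.142) or 3 (-0.56, adjusted p = 0.0976) or wild type-vehicle replicate 1 (-0.63, adjusted p = 0.0664) or 3 (-0.29, adjusted p = 0.293).

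**Figure D2:**
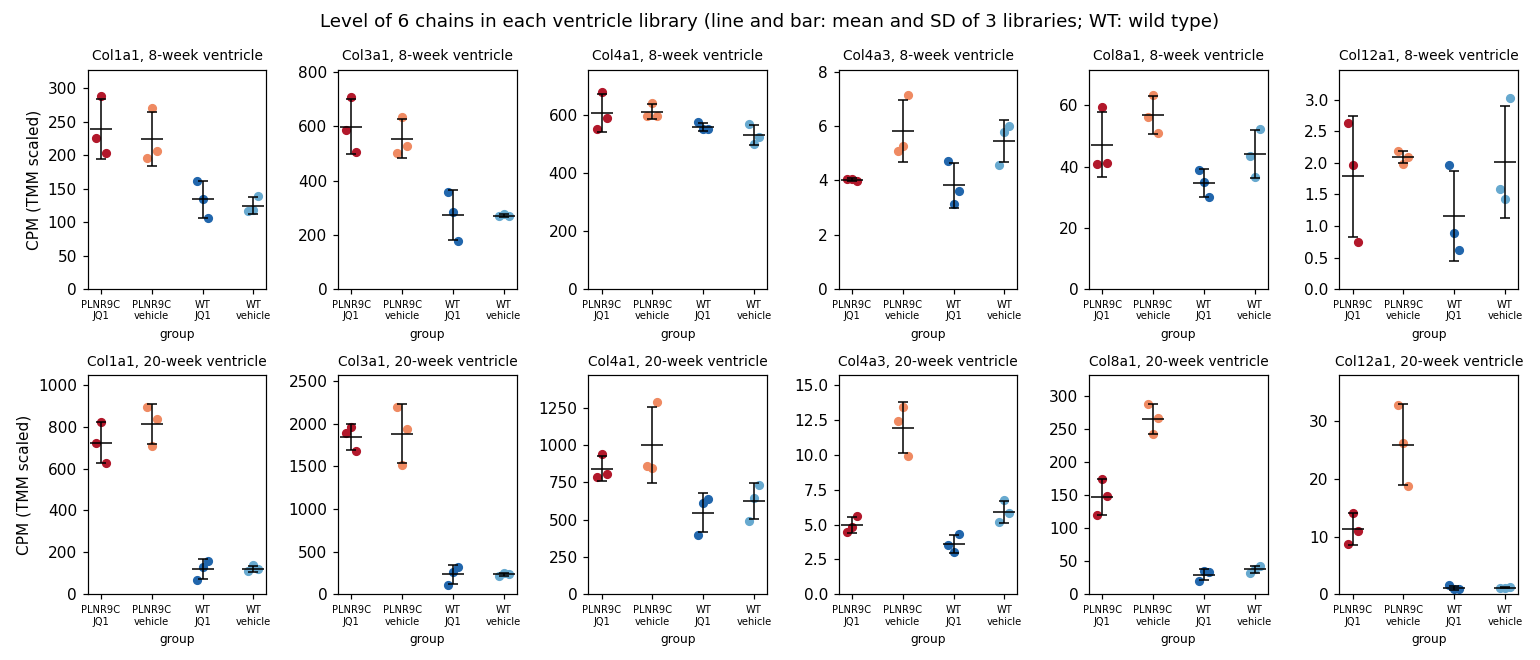
CPM of Col1a1, Col3a1, Col4a1, Col4a3, Col8a1 and Col12a1 in every ventricle library at 8 and 20 weeks, with group means ± SD (n = 3). At 20 weeks the PLNR9C-vehicle libraries of Col1a1 sit at 706 to 895 CPM and the wild type-vehicle libraries at 109 to 138 CPM, and for Col12a1 the PLNR9C-JQ1 libraries (8.66 to 14.1 CPM) lie below the PLNR9C-vehicle libraries (18.8 to 32.8 CPM).

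All 6 type IV chains were called higher at 20 weeks, by less than the type I and type III chains. Col4a1, the most abundant type IV chain, had 859.8, 847 and 1291 CPM in PLNR9C-vehicle and 491, 649 and 729.8 CPM in wild type-vehicle ventricles (log2 fold change 0.68 ± 0.23, adjusted p = 0.0375). Its partner Col4a2 moved by 0.63 ± 0.20 (adjusted p = 0.0278). PLNR9C-vehicle replicate 3 was highest for both. Without it Col4a1 was at 0.45 (adjusted p = 0.118) and Col4a2 at 0.41 (adjusted p = 0.0704), and both calls also ended without wild type-vehicle replicate 1 (0.54, adjusted p = 0.12 for Col4a1 and 0.52, adjusted p = 0.0976 for Col4a2) or 2 (0.72, adjusted p = 0.08 and 0.67, adjusted p = 0.0649, in the same order). The less abundant pairs moved with smaller errors. Col4a3 had 12.5, 13.4 and 9.91 CPM in PLNR9C-vehicle and 5.19, 6.75 and 5.83 CPM in wild type-vehicle ventricles (log2 fold change 1.01 ± 0.16, adjusted p = 5.77e-05), and its partner Col4a4 rose by 0.98 ± 0.11 (adjusted p = 1.08e-06). Col4a5 and Col4a6, the X-linked pair, rose by 0.72 ± 0.09 (adjusted p = 2.77e-06) and 0.83 ± 0.18 (adjusted p = 0.00103).

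Among the other chains, 4 of 7 fibril-associated and both type VIII chains tested were called higher. The fibril-associated Col20a1 (0.10 ± 0.17, adjusted p = 0.659), Col9a3 (1.01 ± 0.45, adjusted p = 0.0745) and Col22a1 (1.06 ± 0.43, adjusted p = 0.0504) were not called. Col12a1, which links fibrils to their surroundings, had 32.8, 26.2 and 18.8 CPM in PLNR9C-vehicle and 1.08, 1.15 and 1.32 CPM in wild type-vehicle ventricles, a log2 fold change of 4.46 ± 0.26 (SE, adjusted p = 3.11e-09). Col14a1 had 203, 158 and 147 CPM in PLNR9C-vehicle and 14.7, 21.2 and 13.3 CPM in wild type-vehicle ventricles (log2 fold change 3.37 ± 0.29, adjusted p = 1.3e-05), and Col16a1 rose by 2.12 ± 0.10 (adjusted p = 4.2e-11). Col9a2, a cartilage chain, was at 1.74, 2.29 and 0.875 CPM in PLNR9C-vehicle and 0.0865, 0.0888 and 0.253 CPM in wild type-vehicle ventricles (log2 fold change 3.52 ± 0.56, adjusted p = 5.38e-05), where no wild type library reached 0.5 CPM.

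The type VIII chains, whose promoters are printed above, followed. Col8a1 had 288, 242 and 266 CPM in PLNR9C-vehicle and 31.98, 38.9 and 42.5 CPM in wild type-vehicle ventricles (log2 fold change 2.81 ± 0.22, adjusted p = 3.15e-06). Col8a2 had 10.2, 9.87 and 11.3 CPM in PLNR9C-vehicle and 0.736, 0.355 and 0.304 CPM in wild type-vehicle ventricles (log2 fold change 4.45 ± 0.36, adjusted p = 7.06e-08). Neither chain had overlapping groups. Of the type VI chains Col6a1 (1.50 ± 0.23, adjusted p = 0.00045) and Col6a2 (1.46 ± 0.25, adjusted p = 0.00104) rose, Col6a3 was at 0.62 ± 0.29 (adjusted p = 0.123), and Col6a5 had 38.3, 36.9 and 27.6 CPM in PLNR9C-vehicle and 2.60, 3.78 and 2.99 CPM in wild type-vehicle ventricles (log2 fold change 3.46 ± 0.30, adjusted p = 4.08e-06). The multiplexins, heparan or chondroitin sulfate proteoglycans of basement membrane zones, rose by 1.62 ± 0.14 (adjusted p = 5.92e-08) for Col18a1 and 1.08 ± 0.30 (adjusted p = 0.0186) for Col15a1. The Col15a1 call ended without PLNR9C-vehicle replicate 3 (0.89, adjusted p = 0.0644) or wild type-vehicle replicate 1 (0.97, adjusted p = 0.0684).

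**Figure D3:**
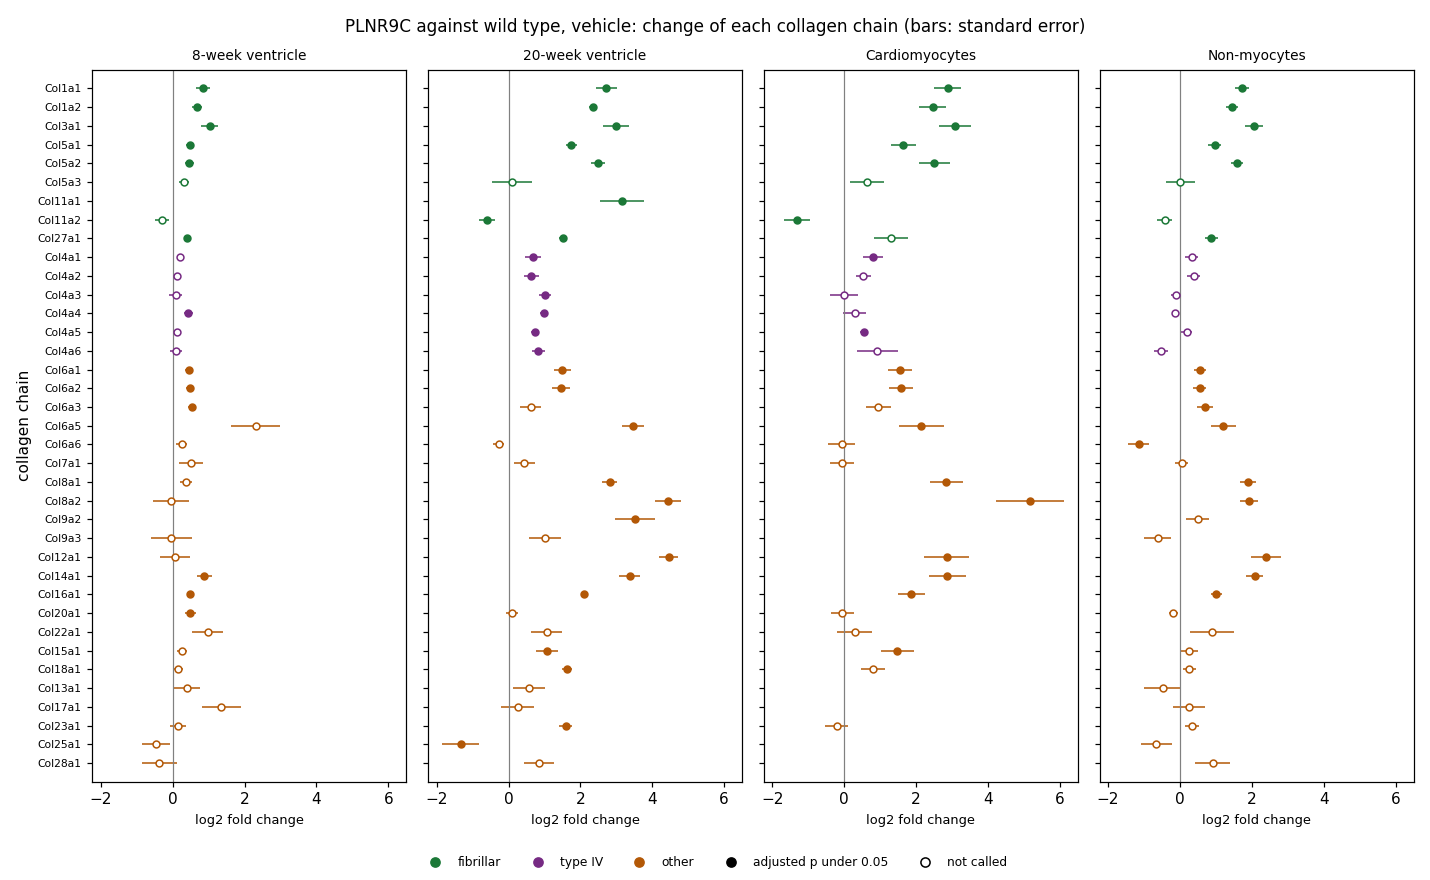
Log2 fold change of each tested chain, PLNR9C-vehicle over wild type-vehicle, with its SE, by class, in the 4 sample types; filled points were called at adjusted p under 0.05. Fibrillar chains such as Col3a1 (1.03 in the 8-week and 2.99 in the 20-week ventricles, 3.09 in cardiomyocytes, 2.06 in non-myocytes) lie to the right of Col4a1 (0.21, 0.68, 0.80 and 0.32 in the same order). The Col8a2 value in cardiomyocytes rests on 1 wild type read.

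Cell markers moved with the 20-week result. Summed fibroblast markers were 3250.0 to 3586 CPM in PLNR9C-vehicle and 2060.1 to 2106 CPM in wild type-vehicle ventricles, with 8 of 10 higher and a median log2 fold change of 1.03. Activated fibroblast markers were 1366 to 1562 CPM in PLNR9C-vehicle and 208 to 284 CPM in wild type-vehicle, with 7 of 8 higher (median 3.09). Cardiomyocyte markers were 32796 to 39057 CPM in PLNR9C-vehicle and 64762 to 75010.3 CPM in wild type-vehicle, with 7 of 8 lower, and endothelial markers were lower for 8 of 10. Of all genes 23.3% were called higher and 21.4% lower in this comparison. None of these markers was at 0 in all 3 libraries of a group. Their part in the collagen result was not tested.

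The genotype difference was larger at 20 than at 8 weeks for 20 of 37 chains and smaller for none, by a test of the difference itself over all 24 ventricle libraries, in which 15.5% of all genes were called, 7.03% higher and 8.51% lower. The median difference of log2 fold changes was 1.06 over the chains and -0.02 over all genes. Called were 6 of 9 fibrillar, 4 of 6 type IV and 10 of 22 other chains. For Col12a1 the difference was 4.40 ± 0.55 (SE, adjusted p = 1.24e-05), for Col8a2 4.52 ± 0.69 (SE, adjusted p = 6.95e-05) and for Col14a1 2.50 ± 0.36 (SE, adjusted p = 0.000132). Col1a1 (1.89 ± 0.34, SE) and Col3a1 (1.97 ± 0.42, SE) were called as well, whereas Col4a1 (0.48 ± 0.25, adjusted p = 0.232), Col6a3 (0.09 ± 0.32, adjusted p = 0.907) and Col15a1 (0.83 ± 0.35, adjusted p = 0.125) were not. Col9a2 was called at 3.29 ± 1.03 (adjusted p = 0.0282), yet its difference was 1.08 (adjusted p = 0.751) without wild type-vehicle replicate 2 of 8 weeks, in which it was high for that group (0.117, 0.630 and 0 CPM). Col9a2 passed the filter on low counts through the PLNR9C-vehicle libraries of 20 weeks, where it was high. Leaving out PLNR9C-vehicle replicate 1 or 3 of 8 weeks (3.26, adjusted p = 0.0528 and 3.21, adjusted p = 0.0547), PLNR9C-vehicle replicate 1 or 2 of 20 weeks (3.24, adjusted p = 0.0511 and 2.98, adjusted p = 0.063) or wild type-vehicle replicate 1 or 2 of 20 weeks (3.03, adjusted p = 0.0692 and 3.05, adjusted p = 0.0667) also ended its call. Col6a2 (0.99 ± 0.28, adjusted p = 0.0217) lost its call without PLNR9C-vehicle replicate 1 (0.91, adjusted p = 0.0573) or wild type-vehicle replicate 3 (0.91, adjusted p = 0.0597) of 8 weeks, or PLNR9C-vehicle replicate 3 (0.92, adjusted p = 0.0519) or wild type-vehicle replicate 1 (0.87, adjusted p = 0.0603) of 20 weeks. The 8- and 20-week libraries come from separate deposited tables, and a shift common to all libraries of a table cancels in this difference.

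With JQ1 some chains were lower in PLNR9C ventricles at 20 weeks, while the most abundant fibrillar chains were not called. In detail, 10 of 37 chains were lower and 1 was higher in PLNR9C-JQ1 than in PLNR9C-vehicle ventricles, against 31.9% of all genes (15.9% higher, 16.1% lower). The share of chains called, 11 of 37, was near that background. The lower chains were 1 of 9 fibrillar, 2 of 6 type IV and 7 of 22 others, and the median log2 fold change was -0.25 over the chains and 0.00 over all genes.

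The 2 type VIII chains and the fibril-associated chain Col12a1 were among the lower ones. Col12a1 had 8.66, 14.1 and 11.04 CPM in PLNR9C-JQ1 and 32.8, 26.2 and 18.8 CPM in PLNR9C-vehicle ventricles, a log2 fold change of -1.21 ± 0.20 (SE, adjusted p = 0.000401). Col8a1 had 120.1, 175 and 148 CPM in PLNR9C-JQ1 and 288, 242 and 266 CPM in PLNR9C-vehicle ventricles (log2 fold change -0.84 ± 0.20, adjusted p = 0.0107). Col8a2 had 3.18, 4.62 and 3.46 CPM in PLNR9C-JQ1 and 10.2, 9.87 and 11.3 CPM in PLNR9C-vehicle ventricles (log2 fold change -1.47 ± 0.27, adjusted p = 0.000701). In each case the groups did not overlap.

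The cartilage chains Col11a1 and Col9a2 were lower as well, both at low levels. Both passed the filter on low counts only through the PLNR9C-vehicle libraries, so the filter favoured a lower call here. Col11a1 was at 0.210, 0.278 and 0.0377 CPM in PLNR9C-JQ1 and 1.17, 1.19 and 1.02 CPM in PLNR9C-vehicle ventricles (log2 fold change -2.63 ± 0.54, adjusted p = 0.00123), and Col9a2 at 0.210, 0.347 and 0.226 CPM in PLNR9C-JQ1 and 1.74, 2.29 and 0.875 CPM in PLNR9C-vehicle ventricles (log2 fold change -2.63 ± 0.48, adjusted p = 0.000539). Of the type IV chains the paired Col4a3 and Col4a4 fell. Col4a3 had 4.47, 4.86 and 5.61 CPM in PLNR9C-JQ1 and 12.5, 13.4 and 9.91 CPM in PLNR9C-vehicle ventricles (log2 fold change -1.26 ± 0.16, adjusted p = 2.14e-05), and Col4a4 was at -0.89 ± 0.11 (adjusted p = 1.25e-05). Col16a1 (-0.45 ± 0.09, adjusted p = 0.00123), Col18a1 (-0.72 ± 0.13, adjusted p = 0.000541) and the transmembrane chain Col23a1 (-0.84 ± 0.17, adjusted p = 0.00152) were also lower. Col20a1, a fibril-associated chain, was higher (log2 fold change 0.58 ± 0.16, adjusted p = 0.0114), a call that ended without PLNR9C-JQ1 replicate 2 (0.51, adjusted p = 0.0517) or PLNR9C-vehicle replicate 2 (0.50, adjusted p = 0.0559).

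Type I and type III chains stayed within the spread of the replicates. Col1a1 had 721, 821 and 627 CPM in PLNR9C-JQ1 and 895, 706 and 836 CPM in PLNR9C-vehicle ventricles (log2 fold change -0.17 ± 0.26, adjusted p = 0.667). Col3a1 had 1897, 1962 and 1679 CPM in PLNR9C-JQ1 and 2201, 1512 and 1941 CPM in PLNR9C-vehicle ventricles (log2 fold change -0.03 ± 0.33, adjusted p = 0.954). Col1a2 was at -0.15 ± 0.11 (adjusted p = 0.316), Col5a1 at -0.09 ± 0.16 (adjusted p = 0.703), Col4a1 at -0.25 ± 0.23 (adjusted p = 0.459) and Col4a2 at -0.20 ± 0.20 (adjusted p = 0.485). Col5a2 (-0.43 ± 0.18, adjusted p = 0.0905), Col6a1 (-0.36 ± 0.22, adjusted p = 0.248) and Col6a2 (-0.44 ± 0.24, adjusted p = 0.197) were not called here and were called lower when only the 6 libraries compared were fitted (-0.43, adjusted p = 0.00752, -0.37, adjusted p = 0.00326 and -0.45, adjusted p = 0.000777 in that order). Col6a3 (0.17 ± 0.29, adjusted p = 0.696), Col14a1 (-0.43 ± 0.26, adjusted p = 0.237) and Col15a1 (-0.56 ± 0.30, adjusted p = 0.193) did not pass either.

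**Figure D4:**
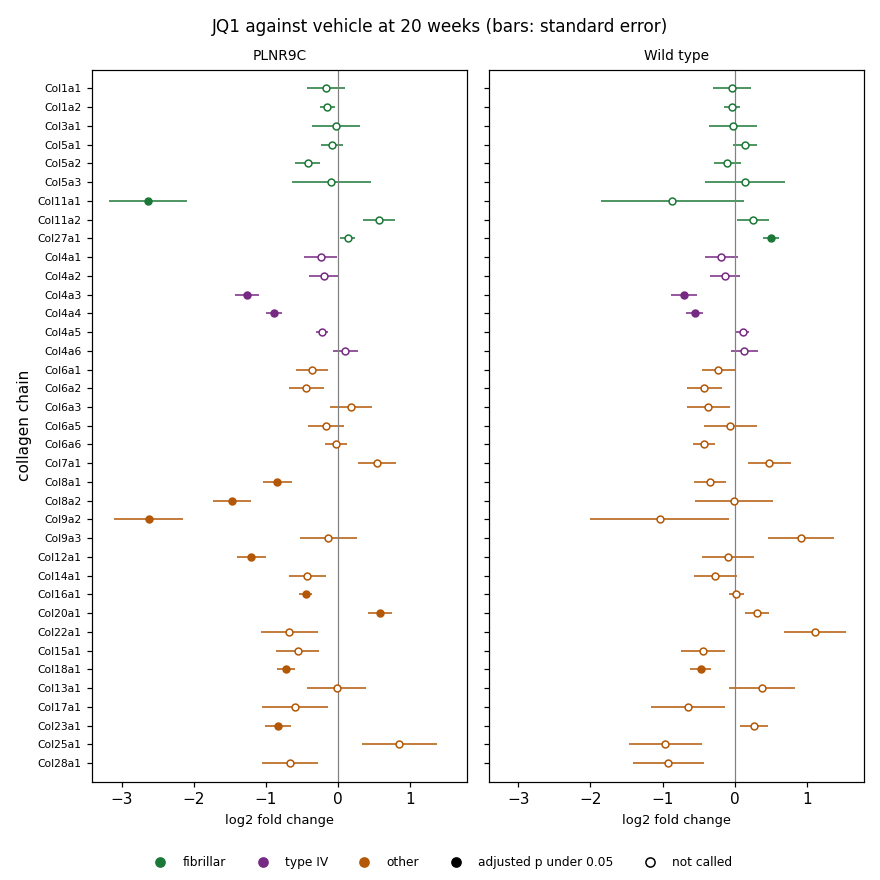
Log2 fold change of JQ1 over vehicle at 20 weeks for each tested chain, in PLNR9C and in wild type ventricles, with its SE; filled points were called at adjusted p under 0.05. In PLNR9C ventricles Col12a1 lies at -1.21 and Col8a1 at -0.84, while Col1a1 (-0.17) and Col3a1 (-0.03) lie near 0.

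Of the 10 chains lower with JQ1, 8 had a promoter in the table, and GGGCGG occurred in 7 of these 8 windows and in 14 of the 27 others. CCAAT occurred in 3 of the 8 and 9 of the 27, TATAAA in 0 and 5, and TGANTCA in 0 and 1. The windows of Col8a1 and Col8a2 printed above are among the 7, and that of Col1a2, which was not called with JQ1, also held GGGCGG. The 7 also include Col9a2 and Col11a1, which passed the filter only through the PLNR9C-vehicle libraries. Among the 27 others are Col6a4, Col9a1, Col10a1, Col19a1 and Col24a1, which were not tested at 20 weeks and so could not be called. Of these only Col6a4 held GGGCGG. A link between the motif and JQ1 was not tested. In the same libraries summed activated fibroblast markers were 859.7 to 1238 CPM in PLNR9C-JQ1 and 1366 to 1562 CPM in PLNR9C-vehicle ventricles. Of these 3 of 8 were lower (median -0.95), beside 16.1% of all genes lower. Postn, Meox1, Comp and Cilp did not overlap between the groups, while Cthrc1, Fap, Acta2 and Fn1 did. Summed fibroblast markers were 3527 to 4074 CPM in PLNR9C-JQ1 and 3250.0 to 3586 CPM in PLNR9C-vehicle, which overlapped, with 1 of 10 higher and 1 lower. Cardiomyocyte markers were higher for 5 of 8, beside 15.9% of all genes higher. Their part in the collagen result was not tested. This comparison shares the PLNR9C-vehicle libraries with the genotype comparison, so opposite signs of a chain in these comparisons are not independent.

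In wild type ventricles at 20 weeks JQ1 moved 4 chains, 1 higher and 3 lower, against 27.2% of all genes (12.3% higher, 14.9% lower). Col27a1 rose (log2 fold change 0.50 ± 0.11, adjusted p = 0.00327), and Col4a3, Col4a4 and Col18a1 fell. Col4a3 had 3.57, 3.03 and 4.29 CPM in wild type-JQ1 and 5.19, 6.75 and 5.83 CPM in wild type-vehicle ventricles (log2 fold change -0.71 ± 0.18, adjusted p = 0.00675), Col4a4 was at -0.55 ± 0.12 (adjusted p = 0.00188) and Col18a1 at -0.47 ± 0.15 (adjusted p = 0.0229). The Col18a1 call ended without wild type-JQ1 replicate 1 (-0.31, adjusted p = 0.115) or 2 (-0.45, adjusted p = 0.0781) or wild type-vehicle replicate 3 (-0.35, adjusted p = 0.115), and without wild type-JQ1 replicate 3 there were 7 calls in all. Col12a1 had 1.55, 0.861 and 0.927 CPM in wild type-JQ1 and 1.08, 1.15 and 1.32 CPM in wild type-vehicle ventricles, both near 1 CPM, and Col8a1 was at -0.34 ± 0.22 (adjusted p = 0.284).

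The JQ1 effect was tested for a difference between genotypes, and no chain was called with edgeR's quasi-likelihood test at 20 weeks, against 0.357% of all genes (0.15% higher, 0.207% lower). Of the chains 10 had an unadjusted p under 0.05, and DESeq2 called 1. This was Col23a1, named after its values were seen, with a difference of log2 fold changes of -1.10 ± 0.26 (SE, adjusted p = 0.0893) here and -1.12 (adjusted p = 0.0143) with DESeq2. Col12a1 was at -1.11 ± 0.42 (adjusted p = 0.341), Col8a1 at -0.50 ± 0.30 (adjusted p = 0.63) and Col16a1 at -0.48 ± 0.14 (adjusted p = 0.158). At 8 weeks no chain was called, against 0.00645% of all genes (0% higher, 0.00645% lower), with 5 at an unadjusted p under 0.05 and 0 by DESeq2.

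Treated PLNR9C ventricles still differed from untreated wild type ventricles at 20 weeks. Of 37 chains 20 were higher in PLNR9C-JQ1 than in wild type-vehicle and 0 were lower, against 49.7% of all genes (25% higher, 24.7% lower). Col1a1 was at 2.56 ± 0.28 (adjusted p = 6.02e-05), Col3a1 at 2.96 ± 0.36 (adjusted p = 0.000151), Col12a1 at 3.25 ± 0.27 (adjusted p = 1.32e-07) and Col8a1 at 1.97 ± 0.21 (adjusted p = 3.71e-05). Col14a1 (2.94 ± 0.29, adjusted p = 3.08e-05), Col8a2 (2.98 ± 0.38, adjusted p = 1.03e-05) and Col6a5 (3.29 ± 0.30, adjusted p = 6.22e-06) were among the 5 with the widest difference. Of the type IV chains 2 of 6 were called, and Col4a1 (0.44 ± 0.23, adjusted p = 0.148), Col4a3 (-0.25 ± 0.17, adjusted p = 0.23) and Col4a4 (0.09 ± 0.11, adjusted p = 0.531) were not.

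At 8 weeks JQ1 moved 6 of 35 chains in PLNR9C ventricles, 3 higher and 3 lower, against 33.1% of all genes (15.5% higher, 17.7% lower). Col7a1, the anchoring-fibril chain, had 2.28, 1.72 and 2.70 CPM in PLNR9C-JQ1 and 1.34, 0.694 and 1.55 CPM in PLNR9C-vehicle ventricles (log2 fold change 0.89 ± 0.29, adjusted p = 0.0222). Col11a2 (0.60 ± 0.19, adjusted p = 0.0211) and Col27a1 (0.25 ± 0.09, adjusted p = 0.0393) also rose. Col4a4 had 10.9, 9.29 and 10 CPM in PLNR9C-JQ1 and 13.8, 16.4 and 17.02 CPM in PLNR9C-vehicle ventricles (log2 fold change -0.64 ± 0.13, adjusted p = 0.000769), and Col4a3 (-0.52 ± 0.18, adjusted p = 0.0319) and Col23a1 (-0.68 ± 0.22, adjusted p = 0.0249) were lower. In wild type ventricles at 8 weeks 4 chains moved, against 29.8% of all genes (14.3% higher, 15.4% lower), Col7a1 (0.86 ± 0.32, adjusted p = 0.0459) and Col20a1 (0.70 ± 0.15, adjusted p = 0.0017) higher, Col4a3 (-0.53 ± 0.18, adjusted p = 0.0343) and Col15a1 (-0.44 ± 0.15, adjusted p = 0.048) lower. Col1a1 was at 0.09 in PLNR9C and 0.10 in wild type, and Col12a1 at -0.19 and -0.83 in that order, none of them called. Against wild type-vehicle, PLNR9C-JQ1 ventricles at 8 weeks had 16 of 35 chains higher and 0 lower, against 35.7% of all genes (17.6% higher, 18.1% lower), with Col7a1 at 1.39 ± 0.30 (adjusted p = 0.00137), Col3a1 at 1.14 ± 0.24 (adjusted p = 0.00562), Col1a1 at 0.94 ± 0.19 (adjusted p = 0.00494), Col1a2 at 0.79 ± 0.14 (adjusted p = 0.00125) and Col20a1 at 0.71 ± 0.15 (adjusted p = 0.0011).

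These 8-week calls were mostly small and rested on single libraries. In PLNR9C, where 2 chains were called without PLNR9C-JQ1 replicate 3 and 3 without PLNR9C-JQ1 replicate 1 or PLNR9C-vehicle replicate 3, Col7a1 ended without PLNR9C-JQ1 replicate 1 (0.86, adjusted p = 0.0532) or 3 (0.74, adjusted p = 0.0886) or PLNR9C-vehicle replicate 2 (0.62, adjusted p = 0.11). Col11a2 ended without PLNR9C-JQ1 replicate 1 (0.43, adjusted p = 0.123) or 3 (0.56, adjusted p = 0.0639) or PLNR9C-vehicle replicate 2 (0.55, adjusted p = 0.0741) or 3 (0.60, adjusted p = 0.0533). Col4a3 ended without PLNR9C-JQ1 replicate 1 (-0.53, adjusted p = 0.0651), 2 (-0.53, adjusted p = 0.073) or 3 (-0.51, adjusted p = 0.0752) or PLNR9C-vehicle replicate 3 (-0.36, adjusted p = 0.169), and Col23a1 without PLNR9C-JQ1 replicate 2 (-0.61, adjusted p = 0.0895) or 3 (-0.64, adjusted p = 0.0719) or PLNR9C-vehicle replicate 1 (-0.63, adjusted p = 0.0785) or 3 (-0.62, adjusted p = 0.0752). Col27a1 ended without PLNR9C-JQ1 replicate 1 (0.24, adjusted p = 0.0947) or 2 (0.22, adjusted p = 0.123) or PLNR9C-vehicle replicate 1 (0.23, adjusted p = 0.126) or 2 (0.24, adjusted p = 0.099), and Col4a4 was called in each. In wild type 1 chain was called without wild type-JQ1 replicate 3 or wild type-vehicle replicate 3, and 2 without wild type-JQ1 replicate 2 or wild type-vehicle replicate 1 or 2. The Col7a1 call ended when any 1 of the 6 libraries was left out, at 0.87 (adjusted p = 0.0754), 0.80 (adjusted p = 0.114) and 0.91 (adjusted p = 0.0678) without wild type-JQ1 replicates 1, 2 and 3 and 0.81 (adjusted p = 0.11), 0.86 (adjusted p = 0.0988) and 0.91 (adjusted p = 0.0794) without wild type-vehicle replicates 1, 2 and 3. Col4a3 ended without wild type-JQ1 replicate 2 (-0.40, adjusted p = 0.15) or 3 (-0.49, adjusted p = 0.0955) or wild type-vehicle replicate 2 (-0.49, adjusted p = 0.104) or 3 (-0.46, adjusted p = 0.118), and Col15a1 without wild type-JQ1 replicate 2 (-0.42, adjusted p = 0.119) or 3 (-0.32, adjusted p = 0.131) or wild type-vehicle replicate 1 (-0.47, adjusted p = 0.0752) or 3 (-0.32, adjusted p = 0.141).

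Cell markers showed what the 16-week fractions held. In wild type-vehicle samples all 8 cardiomyocyte markers were higher in the cardiomyocyte than in the non-myocyte fraction (median log2 fold change 5.46), and all 10 fibroblast markers were lower (median -4.33). Of all genes 37.3% were called higher and 42.2% lower in that comparison. Fibroblast markers were still present in wild type-vehicle cardiomyocytes at a sum of 394 to 469.9 CPM, with none at 0. The PLNR9C-JQ1 cardiomyocyte libraries stood apart from each other: their fibroblast marker sums were 1197, 3459 and 2156 CPM, and replicate 2 also had the lowest cardiomyocyte marker sum of the group, at 38417 CPM against 63102 and 55949 CPM in replicates 1 and 3.

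In the cardiomyocyte fraction 16 of 30 chains tested were higher and 1 was lower in PLNR9C-vehicle than in wild type-vehicle, against 26.1% of all genes (14.3% higher, 11.8% lower). Called higher were 5 of 8 fibrillar, 2 of 6 type IV and 9 of 16 other chains, with a median log2 fold change of 1.12 over the chains and 0.00 over all genes. Col1a1 had 306, 183 and 272 CPM in PLNR9C-vehicle and 39.1, 38.4 and 25.3 CPM in wild type-vehicle cardiomyocytes (log2 fold change 2.88 ± 0.38, adjusted p = 0.000354), and Col3a1 had 686, 424 and 627 CPM in PLNR9C-vehicle and 89.7, 77.04 and 37.4 CPM in wild type-vehicle cardiomyocytes (log2 fold change 3.09 ± 0.44, adjusted p = 0.000578). These fibrillar levels did not overlap between genotypes. Col8a1 (2.84 ± 0.45, adjusted p = 0.00108), Col12a1 (2.85 ± 0.63, adjusted p = 0.00668), Col14a1 (2.87 ± 0.52, adjusted p = 0.00234), Col6a1 (1.55 ± 0.34, adjusted p = 0.00655) and Col16a1 (1.87 ± 0.36, adjusted p = 0.00307) rose as well. Col8a2 had 53 reads in the 3 PLNR9C-vehicle libraries and 1 read in the 3 wild type-vehicle libraries, a ratio of 52.6 per read in genes with an exact 95% interval of 9.04 to 2120.0 for counting error only.

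Of the 6 type IV chains of the cardiomyocyte fraction, Col4a1 and Col4a5 were called. Col4a1 had 719.6, 573 and 786 CPM in PLNR9C-vehicle and 426, 404 and 363 CPM in wild type-vehicle cardiomyocytes (log2 fold change 0.80 ± 0.27, adjusted p = 0.0478), a call that ended without PLNR9C-vehicle replicate 1 (0.78, adjusted p = 0.105) or 3 (0.70, adjusted p = 0.136) or wild type-vehicle replicate 1 (0.85, adjusted p = 0.0892), 2 (0.81, adjusted p = 0.105) or 3 (0.72, adjusted p = 0.145). Col4a2 was at 0.52 ± 0.21 (adjusted p = 0.0809), and Col4a5 rose by 0.55 ± 0.11 (adjusted p = 0.00268). Col15a1 (1.48 ± 0.47, adjusted p = 0.0383) lost its call without PLNR9C-vehicle replicate 1 (1.27, adjusted p = 0.101) or 3 (1.58, adjusted p = 0.0607) or wild type-vehicle replicate 1 (1.73, adjusted p = 0.0544), 2 (1.63, adjusted p = 0.0675) or 3 (1.13, adjusted p = 0.125). Col11a2 went against the other fibrillar chains and was lower (-1.32 ± 0.36, adjusted p = 0.0171), which ended without PLNR9C-vehicle replicate 1 (-1.15, adjusted p = 0.0685) or 3 (-1.09, adjusted p = 0.0634) or wild type-vehicle replicate 1 (-1.16, adjusted p = 0.0647). Fibroblast and macrophage markers moved with the collagens of this fraction, and markers of other cell types did not all do so. The endothelial marker Cdh5 had 102, 94.9 and 101 CPM in PLNR9C-vehicle and 145, 145 and 142 CPM in wild type-vehicle cardiomyocytes. Of the pericyte markers, Rgs5 was lower (54.7, 57.5 and 51.1 against 93.5, 96.0 and 95.8 CPM, same order of groups). Cspg4 was higher (82.4, 71.0 and 145 against 23.6, 29.5 and 41.3 CPM). Fibroblast markers summed to 894 to 1037 CPM in PLNR9C-vehicle and 394 to 469.9 CPM in wild type-vehicle cardiomyocytes, with 7 of 10 higher (median 1.34), and macrophage markers to 132 to 174 CPM and 29.8 to 41.3 CPM in the same order, with 7 of 8 higher. Of all genes 14.3% were called higher and 11.8% lower in this comparison. Whether the reads came from cardiomyocytes or from other cells in the fraction was not tested.

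With JQ1, 29 of the 30 chains had a positive log2 fold change in PLNR9C cardiomyocytes (median 0.76, against -0.03 over all genes), and 1 was called, Col20a1 (log2 fold change 1.25 ± 0.31, adjusted p = 0.0255), against 10.5% of all genes (6.14% higher, 4.33% lower). At an unadjusted p under 0.05 there were 13. Col1a1 had 236, 751 and 406 CPM in PLNR9C-JQ1 and 306, 183 and 272 CPM in PLNR9C-vehicle cardiomyocytes (log2 fold change 0.87 ± 0.35, adjusted p = 0.134), with replicate 2 of JQ1 highest, as it was for fibroblast markers. Fibroblast markers were higher for 3 of 10 (median 0.99) and epicardial or mesothelial markers for 4 of 5 (median 1.75). Without PLNR9C-JQ1 replicate 2 or 3 or PLNR9C-vehicle replicate 1 or 2 no chain was called. Without PLNR9C-JQ1 replicate 2 Col20a1 was at 0.91 (adjusted p = 0.101); without PLNR9C-JQ1 replicate 1, 13 were called. The Col20a1 call also ended without PLNR9C-JQ1 replicate 3 (1.30, adjusted p = 0.0531) or PLNR9C-vehicle replicate 1 (1.09, adjusted p = 0.0843) or 2 (1.14, adjusted p = 0.0962). In wild type cardiomyocytes edgeR's quasi-likelihood test called no chain with JQ1, against 3.63% of all genes (1.7% higher, 1.93% lower), with 5 at an unadjusted p under 0.05 and 1 by DESeq2. The test of a difference between genotypes called none either, against 0% of all genes, with 1 at an unadjusted p under 0.05 and 0 by DESeq2.

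Compared with untreated wild type, PLNR9C-JQ1 cardiomyocytes had 25 of 30 chains higher and 0 lower, against 37.1% of all genes (19.6% higher, 17.5% lower). Col1a1 was at 3.76 ± 0.39 (adjusted p = 7.44e-05), Col3a1 at 3.83 ± 0.46 (adjusted p = 0.000151), Col14a1 at 3.54 ± 0.53 (adjusted p = 0.000524) and Col12a1 at 3.40 ± 0.62 (adjusted p = 0.0016). Here 5 of 6 type IV chains were called, with Col4a1 at 1.25 ± 0.27 (adjusted p = 0.00433) and Col4a2 at 0.83 ± 0.21 (adjusted p = 0.00801). Without PLNR9C-JQ1 replicate 2, the library with the highest fibroblast markers, 21 chains were called higher, and Col4a4 (0.65, adjusted p = 0.0858), Col4a6 (1.53, adjusted p = 0.0562), Col5a3 (1.03, adjusted p = 0.0935) and Col6a6 (0.54, adjusted p = 0.2) were the 4 calls lost, named after their values were seen.

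In the non-myocyte fraction, which holds the fibroblasts, 15 of 36 chains were higher and 1 was lower in PLNR9C-vehicle than in wild type-vehicle, against 18.6% of all genes (10.3% higher, 8.32% lower). Called higher were 6 of 8 fibrillar chains, 0 of 6 type IV chains and 9 of 22 others, with a median log2 fold change of 0.43 over the chains and -0.01 over all genes. Col1a1 had 4363, 3295 and 4374 CPM in PLNR9C-vehicle and 1478, 1259.5 and 919 CPM in wild type-vehicle non-myocytes (log2 fold change 1.72 ± 0.20, adjusted p = 7.09e-05). Col3a1 had 10179, 7537 and 9775 CPM in PLNR9C-vehicle and 3019.5, 2256 and 1334 CPM in wild type-vehicle non-myocytes (log2 fold change 2.06 ± 0.26, adjusted p = 0.000135). Every PLNR9C library lay above every wild type library for both. Col5a2 rose by 1.58 ± 0.16 (adjusted p = 3e-05), Col5a1 by 0.97 ± 0.18 (adjusted p = 0.00208) and Col1a2 by 1.45 ± 0.16 (adjusted p = 6.36e-05).

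In the non-myocyte fraction 3 of 7 fibril-associated and both type VIII chains tested were called higher. Col12a1 had 89.1, 47.98 and 75.7 CPM in PLNR9C-vehicle and 12.7, 15.8 and 11.8 CPM in wild type-vehicle non-myocytes (log2 fold change 2.4 ± 0.42, adjusted p = 0.00346), and Col14a1 had 592, 539.6 and 720.2 CPM in PLNR9C-vehicle and 169.8, 147 and 122 CPM in wild type-vehicle non-myocytes (log2 fold change 2.08 ± 0.23, adjusted p = 8.26e-05). Col8a1 (1.89 ± 0.23, adjusted p = 0.00014), Col8a2 (1.92 ± 0.25, adjusted p = 0.000191) and Col16a1 (1.01 ± 0.15, adjusted p = 0.000483) were higher as well. The fibril-associated Col9a2 (0.49 ± 0.32, adjusted p = 0.336), Col22a1 (0.89 ± 0.61, adjusted p = 0.353), Col20a1 (-0.18 ± 0.13, adjusted p = 0.383) and Col9a3 (-0.62 ± 0.37, adjusted p = 0.276) were not called. The type IV chains were not called, with Col4a1 at 0.32 ± 0.17 (adjusted p = 0.228) and Col4a2 at 0.38 ± 0.18 (adjusted p = 0.156), and neither were Col15a1 (0.26 ± 0.24, adjusted p = 0.516) and Col18a1 (0.26 ± 0.18, adjusted p = 0.367). The same replicate numbers paired the libraries of these 2 groups. With that pairing 17 chains were called, 16 of them the same, and Col4a6, named after its values were seen, was lower at -0.50 (adjusted p = 0.0214).

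Type VI chains were split in non-myocytes. Col6a1 (0.56 ± 0.16, adjusted p = 0.0248), Col6a2 (0.55 ± 0.18, adjusted p = 0.0431) and Col6a3 (0.70 ± 0.23, adjusted p = 0.0483) were higher, and Col6a6, with 41.95, 55.6 and 40.3 CPM in PLNR9C-vehicle and 128, 112 and 65.6 CPM in wild type-vehicle non-myocytes, was lower (log2 fold change -1.15 ± 0.29, adjusted p = 0.0188). These calls were sensitive to single libraries. Without PLNR9C-vehicle replicate 1, Col6a1 was at 0.53 (adjusted p = 0.0712), Col6a2 at 0.50 (adjusted p = 0.122), Col6a3 at 0.64 (adjusted p = 0.138) and Col6a6 at -1.07 (adjusted p = 0.0782). Without PLNR9C-vehicle replicate 2, Col6a2 was at 0.61 (adjusted p = 0.0539) and Col6a3 at 0.68 (adjusted p = 0.101); without replicate 3 of that group Col6a2 was at 0.59 (adjusted p = 0.0649) and Col6a6 at -1.05 (adjusted p = 0.0707). Without wild type-vehicle replicate 1, Col6a6 was at -0.94 (adjusted p = 0.0652). Without wild type-vehicle replicate 2, Col6a1 was at 0.60 (adjusted p = 0.0541), Col6a2 at 0.60 (adjusted p = 0.0751), Col6a3 at 0.76 (adjusted p = 0.0864) and Col6a6 at -1.05 (adjusted p = 0.0595). Without wild type-vehicle replicate 3, Col6a1 was at 0.43 (adjusted p = 0.0772), Col6a2 at 0.39 (adjusted p = 0.131) and Col6a3 at 0.46 (adjusted p = 0.0835). Summed fibroblast markers of the fraction were 15735 to 16848 CPM in PLNR9C-vehicle and 16773 to 19317 CPM in wild type-vehicle, with 4 of 10 higher and 1 lower. Most of each sum was Gsn, at 8875, 10372 and 9128 CPM in PLNR9C-vehicle and 11612, 11852 and 13764 CPM in wild type-vehicle. Dcn went the other way, at 3836, 3523 and 3670 CPM in PLNR9C-vehicle and 3026, 3033 and 3312 CPM in wild type-vehicle. Activated fibroblast markers were 2509 to 4261 CPM in PLNR9C-vehicle and 1061 to 1252 CPM in wild type-vehicle, with 6 of 8 higher. Lower were 9 of 10 endothelial and 7 of 9 smooth muscle and pericyte markers, beside 10.3% of all genes higher and 8.32% lower. Their part in the collagen result was not tested.

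JQ1 moved 5 of 36 chains in PLNR9C non-myocytes, 3 higher and 2 lower, against 36.2% of all genes (16.7% higher, 19.5% lower). Col20a1 had 37.7, 37.7 and 44.6 CPM in PLNR9C-JQ1 and 20.4, 30.3 and 23.4 CPM in PLNR9C-vehicle non-myocytes (log2 fold change 0.70 ± 0.13, adjusted p = 0.00114), and Col4a4 had 57.6, 56.98 and 49.6 CPM in PLNR9C-JQ1 and 75.3, 71.3 and 67.4 CPM in PLNR9C-vehicle non-myocytes (log2 fold change -0.38 ± 0.09, adjusted p = 0.00428). Both were called with each library left out in turn. Col11a2 rose (0.63 ± 0.20, adjusted p = 0.0242), a call that ended without PLNR9C-JQ1 replicate 2 (0.65, adjusted p = 0.0558) or 3 (0.61, adjusted p = 0.065) or PLNR9C-vehicle replicate 1 (0.42, adjusted p = 0.0973). Col17a1, a transmembrane chain of epithelia, fell (-1.95 ± 0.55, adjusted p = 0.0132), and its call ended without PLNR9C-JQ1 replicate 2 (-1.67, adjusted p = 0.0603) or PLNR9C-vehicle replicate 1 (-1.66, adjusted p = 0.0549). Its levels were low, at 0.525, 0.304 and 0.748 CPM in PLNR9C-JQ1 and 2.79, 1.91 and 1.42 CPM in PLNR9C-vehicle non-myocytes, so the size of its fall is uncertain. Col4a6 rose (0.58 ± 0.19, adjusted p = 0.0309), and its call ended without PLNR9C-JQ1 replicate 2 (0.53, adjusted p = 0.0916) or 3 (0.51, adjusted p = 0.0953) or PLNR9C-vehicle replicate 1 (0.57, adjusted p = 0.0755), 2 (0.60, adjusted p = 0.0659) or 3 (0.57, adjusted p = 0.0712). The number of calls was 2 without PLNR9C-JQ1 replicate 2 or PLNR9C-vehicle replicate 1 and 3 without PLNR9C-JQ1 replicate 3. Scaling by library size alone left 1 higher and 3 lower.

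Of the chains lower with JQ1 in PLNR9C ventricle at 20 weeks, Col4a4 was also lower in the non-myocyte fraction at 16 weeks, and Col12a1, Col8a1 and Col8a2 were not called there. Col12a1 was at -0.27 ± 0.38 (adjusted p = 0.617), Col8a1 at -0.42 ± 0.22 (adjusted p = 0.153) and Col8a2 at -0.48 ± 0.23 (adjusted p = 0.126). The age and the tissue differ between these experiments, and the difference itself was not tested. Col1a1 (0.02 ± 0.19, adjusted p = 0.939) and Col3a1 (-0.02 ± 0.25, adjusted p = 0.959) were not called either. In wild type non-myocytes edgeR's quasi-likelihood test called no chain with JQ1, against 38% of all genes (18% higher, 20% lower), with 5 at an unadjusted p under 0.05 and 3 by DESeq2. Without wild type-JQ1 replicate 2 it called 4, and 1 without wild type-JQ1 replicate 1 or wild type-vehicle replicate 1 or 3. In these libraries cardiomyocyte markers were 4908 to 6554 CPM with JQ1 and 2117 to 3339.7 CPM with vehicle. The test of a difference between genotypes called none, against 0% of all genes, with 2 at an unadjusted p under 0.05 and 0 by DESeq2. Against wild type-vehicle, PLNR9C-JQ1 non-myocytes had 18 chains higher and 3 lower (against 42.2% of all genes, 20.3% higher and 21.9% lower), with Col12a1 at 2.12 ± 0.42 (adjusted p = 0.00268), Col14a1 at 1.89 ± 0.22 (adjusted p = 5.13e-05), Col3a1 at 2.04 ± 0.26 (adjusted p = 4.98e-05) and, among the lower, Col17a1 at -1.70 ± 0.56 (adjusted p = 0.0242), Col6a6 at -1.05 ± 0.29 (adjusted p = 0.0136) and Col4a4 at -0.52 ± 0.09 (adjusted p = 0.000423). Of these lower calls Col17a1 ended without PLNR9C-JQ1 replicate 1 (-1.68, adjusted p = 0.0628) or 2 (-1.42, adjusted p = 0.0965) or wild type-vehicle replicate 1 (-1.44, adjusted p = 0.0849), and Col6a6 without wild type-vehicle replicate 1 (-0.85, adjusted p = 0.0509). Col17a1 was low in both groups, at 0.525, 0.304 and 0.748 CPM in PLNR9C-JQ1 and 2.30, 1.52 and 1.37 CPM in wild type-vehicle non-myocytes.

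The last comparison asked in which fraction of wild type-vehicle hearts each chain was read. Of 37 chains 30 were lower in cardiomyocytes than in non-myocytes and 0 were higher, against 79.5% of all genes (37.3% higher, 42.2% lower). The median log2 fold change was -3.34 over the chains and -0.13 over all genes. Lower were 7 of 9 fibrillar, 5 of 6 type IV and 18 of 22 other chains. Of the lower chains, Col9a2, Col9a3 and Col25a1 passed the filter on low counts over the non-myocyte libraries and failed it over the cardiomyocyte libraries. The filter thus favoured their lower calls here. In CPM scaled over both fractions, Col1a1 had 52.6, 51.8 and 34.3 CPM in cardiomyocytes and 1109, 961 and 693 CPM in non-myocytes (log2 fold change -4.32 ± 0.34, adjusted p = 1.64e-10). Col3a1 (-4.18 ± 0.41, adjusted p = 5.3e-09), Col6a1 (-4.11 ± 0.30, adjusted p = 6.31e-11), Col1a2 (-4.21 ± 0.32, adjusted p = 8.66e-11), Col8a1 (-4.22 ± 0.40, adjusted p = 6.2e-09), Col6a6 (-4.26 ± 0.36, adjusted p = 8.21e-10), Col14a1 (-4.10 ± 0.44, adjusted p = 4.55e-08) and Col15a1 (-4.20 ± 0.43, adjusted p = 2.12e-08) were lower too, beside a median of -4.33 over the 10 fibroblast markers. Col8a2 had 1 read in the 3 cardiomyocyte and 205 reads in the 3 non-myocyte libraries, a ratio of 0.00462 with an exact 95% interval of 0.000116 to 0.026 for counting error only.

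Type IV chains spread widely between the fractions. Col4a1 had 572, 545 and 492 CPM in cardiomyocytes and 2254, 1983 and 1797 CPM in non-myocytes (log2 fold change -1.91 ± 0.25, adjusted p = 4.36e-07), and Col4a2 had 563, 523 and 575 CPM in cardiomyocytes and 1331, 1199.7 and 1116 CPM in non-myocytes (log2 fold change -1.14 ± 0.21, adjusted p = 4.58e-05). The low chains Col4a3 and Col4a4 lay nearer the median of all chains. Col4a4 had 3.93, 6.49 and 7.17 CPM in cardiomyocytes and 63.5, 57.4 and 56.96 CPM in non-myocytes (log2 fold change -3.34 ± 0.22, adjusted p = 8.86e-12), and Col4a3 was at -2.82 ± 0.27 (adjusted p = 2.96e-09). Per length, Col4a2 (62.2 ± 2.03 RPKM) and Col4a1 (58.5 ± 5.59 RPKM) led the collagens of wild type-vehicle cardiomyocytes, and Col3a1 was at 8.34 ± 3.43 RPKM there. In wild type-vehicle non-myocytes Col4a1 was at 429 ± 49.9 RPKM and Col3a1 at 295 ± 112 RPKM. Type IV chains made up 71.4 ± 4.87% of collagen RPKM in wild type-vehicle cardiomyocytes and 31.04 ± 3.86% in non-myocytes.

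The partners of a head-to-head pair did not move in equal steps. The RPKM ratio of Col4a1 to Col4a2 was 0.941 ± 0.0978 in wild type-vehicle cardiomyocytes and 1.60 ± 0.0401 in non-myocytes. The X-linked chain Col4a5, named after its values were seen, was the type IV chain not called lower. It had 77.1, 81.6 and 85.9 CPM in cardiomyocytes and 78.8, 70.1 and 52.9 CPM in non-myocytes, which overlapped (log2 fold change 0.28 ± 0.14, adjusted p = 0.0727), whereas its partner Col4a6 was at -3.92 ± 0.41 (adjusted p = 2.26e-08). The same replicate numbers paired these libraries, and with that pairing Col4a5 was called higher in cardiomyocytes (0.34, adjusted p = 0.0239), which made 31 calls, as it was without wild type-vehicle non-myocyte replicate 1 (0.41, adjusted p = 0.0181). With scaling by library size alone it was lower (-0.69, adjusted p = 8.64e-05), and the median of all genes was then -1.10, so its direction depends on the scaling. Col11a2 (0.10 ± 0.28, adjusted p = 0.746) and 5 low chains, Col11a1, Col13a1, Col17a1, Col22a1 and Col28a1, were not called either.

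**Figure D5:**
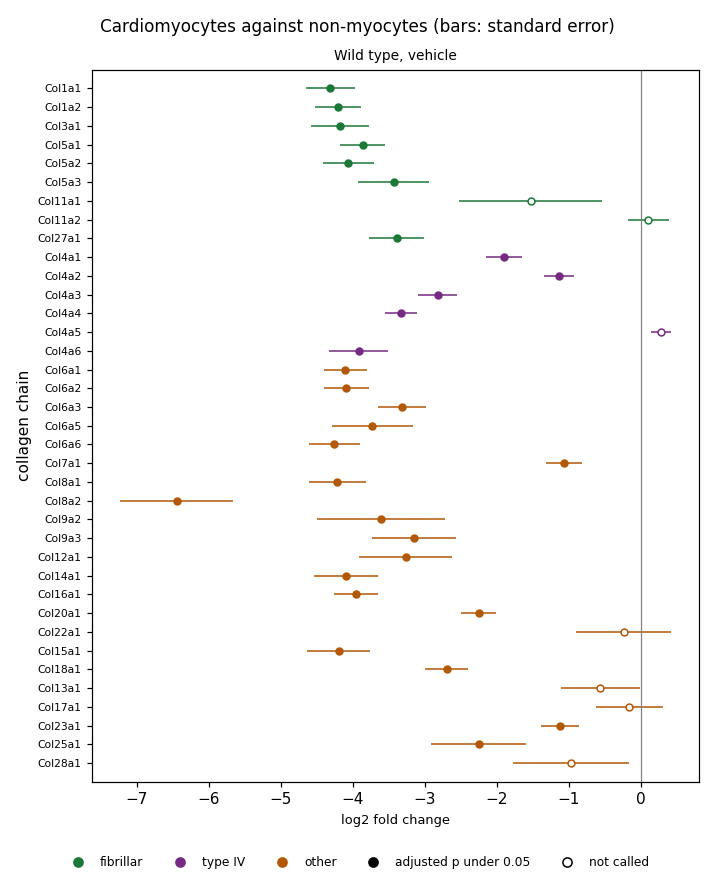
Log2 fold change of each tested chain, wild type-vehicle cardiomyocytes over non-myocytes (3 libraries each), with its SE, by class; filled points were called at adjusted p under 0.05. Type I and type III chains lie at -4.32 to -4.18, Col4a1 at -1.91 and Col4a2 at -1.14, and Col4a5 (0.28) and Col11a2 (0.10) lie right of 0 and were not called.

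The genes that modify, fold, cut, cross-link and bind collagen were given as a list of 52, of which 51 were tested in ventricle. At 20 weeks 35 of the 51 were higher and 5 lower in PLNR9C-vehicle than in wild type-vehicle, with a median log2 fold change of 0.61 against 0.01 over all genes, beside 23.3% of all genes higher and 21.4% lower. At 8 weeks 15 of the 51 were higher and 2 lower, beside 7.86% of all genes higher and 6.49% lower. In cardiomyocytes 28 of 47 were higher and 2 lower, beside 14.3% and 11.8% of all genes in the same order. In non-myocytes 26 of 51 were higher and 6 lower, beside 10.3% and 8.32%. All 5 lysyl oxidases, which start the cross-links of fibrils, were higher at 20 weeks, among them Loxl3 (1.39 ± 0.11, adjusted p = 1.61e-08), Loxl4 (2.30 ± 0.25, adjusted p = 1.84e-06) and Lox (2.59 ± 0.30, adjusted p = 2.27e-05). A further 10 genes were listed for prolyl hydroxylation, which stabilises the helix, and include partners of the enzymes such as Crtap and Ppib. Of these 8 were higher and 1 was lower, with P4hb at 1.16 ± 0.07 (adjusted p = 4.32e-10), P4ha3 at 3.71 ± 0.29 (adjusted p = 1.37e-08) and P3h2 (listed as Leprel1) at 2.21 ± 0.17 (adjusted p = 3.73e-08).

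Genes of the other groups of the list were mostly higher too at 20 weeks. Of 8 procollagen processing genes 5 were higher and 2 lower, with the enhancer Pcolce at 1.71 ± 0.08 (adjusted p = 5.37e-11), the N-proteinase Adamts2 at 2.52 ± 0.12 (adjusted p = 1.35e-10) and the C-proteinase Bmp1 at 0.85 ± 0.09 (adjusted p = 3.17e-07). Lysyl hydroxylase and glycosylation genes were higher for 4 of 6, with Plod2 at 0.66 ± 0.09 (adjusted p = 1.32e-05), and chaperone and secretion genes higher for 4 and lower for 1 of 8, with Fkbp10 at 0.72 ± 0.11 (adjusted p = 3.67e-05) and Larp6, which binds collagen mRNA, at 0.83 ± 0.27 (adjusted p = 0.0202). Receptors were higher for 6 of 9, among them the uptake receptor Mrc2 (1.60 ± 0.08, adjusted p = 1.12e-10) and the integrin chain Itga11 (1.57 ± 0.29, adjusted p = 0.000777). Of 5 degradation genes 3 were higher, with Ctsk at 2.19 ± 0.17 (adjusted p = 9.78e-09) and Mmp2 at 1.48 ± 0.13 (adjusted p = 5.48e-07), while the collagenase Mmp13 was lower (-4.45 ± 0.70, adjusted p = 4.9e-05). Mmp13 was low in both groups, with 0.822, 1.42 and 0.76 CPM in wild type-vehicle ventricles. In PLNR9C-vehicle ventricles it had reads only in replicate 1, so the size of its fold change is uncertain.

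With JQ1 in PLNR9C ventricles at 20 weeks 3 of the 51 were higher and 20 lower, beside 15.9% of all genes higher and 16.1% lower. The median log2 fold change was -0.21 over the list and 0.0043 over all genes. Lower were 2 of 5 lysyl oxidases, Loxl3 (-1.01 ± 0.11, adjusted p = 3.36e-06) and Loxl4 (-1.47 ± 0.23, adjusted p = 0.000228), and 5 of 8 processing genes, such as Pcolce2 (-0.49 ± 0.11, adjusted p = 0.00303) and Adamts14 (-0.96 ± 0.24, adjusted p = 0.00536). Loxl3 had 20.3, 25.6 and 23.3 CPM in PLNR9C-JQ1 and 52.9, 43.3 and 43.4 CPM in PLNR9C-vehicle ventricles, with no overlap. The collagen-binding immune receptor Lair1 (-1.74 ± 0.33, adjusted p = 0.00117), Itga11 (-0.87 ± 0.27, adjusted p = 0.0299), Fkbp10 (-0.63 ± 0.11, adjusted p = 0.000329), Larp6 (-1.09 ± 0.27, adjusted p = 0.0054) and P4ha3 (-0.98 ± 0.22, adjusted p = 0.00283) were also lower. The 3 higher genes were Plod1 (0.42 ± 0.08, adjusted p = 0.000493), P3h1 (listed as Lepre1, 0.37 ± 0.08, adjusted p = 0.00154) and Bmp1 (0.35 ± 0.08, adjusted p = 0.00438). With JQ1 in PLNR9C at 8 weeks 7 of 51 were higher and 9 lower, in a comparison that called 15.5% of all genes higher and 17.7% lower. In non-myocytes 6 of 51 were higher and 11 lower, beside 16.7% and 19.5% of all genes, and in cardiomyocytes 3 of 47 were higher and 2 lower, beside 6.14% and 4.33%. In these 3 comparisons the share of the list called was near that of all genes.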

How the data were processed

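Total RNA of 48 libraries was sequenced, 3 in each of 16 groups, after TRIzol extraction and Nextera library preparation per the labels' protocols. The authors aligned reads with STAR 2.4.1b to GRCm38 (mm10), per the submitters' processing notes. The sources used here do not give the counting tool, its annotation or its strand setting. Per the file headers, the authors deposited read counts per gene, which were whole numbers, beside RPKM values. For genes with 50 or more reads these RPKM values were the authors' reads divided by gene length and library total within 0.1%. The 8- and 20-week ventricle tables held 31920 genes and the table of both fractions 31741.

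Counts were fitted with edgeR 4.0.16 (R 4.3.3): genes with low counts were removed with filterByExpr, libraries were TMM scaled, and robust quasi-likelihood tests were made over the 12 libraries of an experiment, or over 24 for the comparisons between ages and between fractions, with Benjamini-Hochberg adjustment over all genes. A chain was called at adjusted p under 0.05. CPM are counts scaled by the TMM library total. Tested genes numbered 15501 at 8 weeks, 15971 at 20 weeks, 14142 in cardiomyocytes, 15347 in non-myocytes, 16220 over both ages and 15823 over both fractions. The procedure was tested on simulated data. RPKM values entered only levels per length and shares, without a test. P-values rest on the spread between libraries within groups, taken over all groups of a fit and moderated across genes. They therefore do not measure the spread of the compared groups alone. Intervals of read ratios cover counting error only.

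Alternatives were DESeq2 1.42.0, size factors or library size alone in place of TMM, no filter on low counts, only the libraries compared, the replicate number as a block, and each library left out in turn. Same-numbered libraries deviated together, with all 3 correlations above 0.1, for PLNR9C-vehicle against wild type-vehicle non-myocytes (lowest 0.143) and for wild type-vehicle cardiomyocytes against non-myocytes (lowest 0.167). For both a fit with the block and only these libraries was added after the data were seen. The labels do not say what a replicate number shares.

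The members, their classes, the list of collagen-modifying genes and the cell marker lists were chosen with earlier results of these data known. Always described were 16 chains of types I, III, IV, V, VI, VIII, XII, XIV, XV, XVI and XVIII, with, in each comparison, up to 5 called chains with the largest difference in each direction and at least 1 CPM in the higher group, and called chains against their class. Sequences and motif shares are from the RefSeq promoter table of GRCm38.p6.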

Additional observations from a re-analysis of the deposited data

Results flagged for a closer look

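The difference between PLNR9C-vehicle and wild type-vehicle ventricles was larger at 20 than at 8 weeks for 20 chains, by edgeR's quasi-likelihood test of the difference itself over 24 libraries (adjusted p under 0.05). The differences of log2 fold changes, 20 weeks minus 8 weeks, were 1.89 for Col1a1, 1.68 for Col1a2, 1.97 for Col3a1, 1.29 for Col5a1, 2.04 for Col5a2 and 1.14 for Col27a1 among the fibrillar chains. They were 4.40 for Col12a1, 2.50 for Col14a1, 1.64 for Col16a1 and 3.29 for Col9a2 among the fibril-associated chains, and 2.45 for Col8a1 and 4.52 for Col8a2. For the type VI chains Col6a1 and Col6a2 they were 1.07 and 0.99, and for the multiplexin Col18a1 1.48. They were 0.94 for Col4a3, 0.56 for Col4a4, 0.61 for Col4a5 and 0.75 for Col4a6 among the type IV chains, and 1.45 for the transmembrane chain Col23a1. Groups of 3 libraries were not searched for single libraries that stand apart.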

How the results depend on the processing

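The number of chains called stayed within 1.5 times the reported one in most settings. Beyond that, JQ1 in wild type ventricles at 8 weeks gave 2 without a filter (4 reported). The difference of the JQ1 effect between genotypes at 20 weeks gave 1 without a filter and 1 with DESeq2 (0 reported). JQ1 in PLNR9C cardiomyocytes gave 2 without a filter, 2 with the replicate block, 0 with only the libraries compared and 6 with DESeq2 (1 reported), and JQ1 in wild type cardiomyocytes 5 with only the libraries compared and 1 with DESeq2 (0 reported). JQ1 in wild type non-myocytes gave 1 with size factors, 5 with library size alone, 1 without a filter, 2 with the replicate block, 1 with only the libraries compared and 3 with DESeq2 (0 reported). The causes were not tested.

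Leaving out each library in turn gave 6 to 13 calls for genotype at 8 weeks (13 reported), 22 to 27 at 20 weeks (27), 11 to 16 in non-myocytes (16) and 13 to 18 in cardiomyocytes (17). For JQ1 in PLNR9C it gave 2 to 4 at 8 weeks (6), 10 to 12 at 20 weeks (11), 2 to 5 in non-myocytes (5) and 0 to 13 in cardiomyocytes (1). For JQ1 in wild type it gave 1 to 6 at 8 weeks (4), 3 to 7 at 20 weeks (4) and 0 to 4 in non-myocytes (0). It gave 16 to 20 for the comparison of ages (20) and 30 to 31 for that of fractions (30).

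With library size alone the log2 fold change of Col4a5 between cardiomyocytes and non-myocytes was -0.69, the opposite sign of the reported 0.28, with the median of all genes at -1.10. The same scaling moved the median of all genes to 0.27 for genotype at 20 weeks, where 29 chains were then called higher and 0 lower, and turned JQ1 in PLNR9C ventricles at 8 weeks to 2 higher and 4 lower, and JQ1 in wild type at 8 weeks to 1 higher and 2 lower. In PLNR9C-JQ1 against wild type-vehicle non-myocytes it left 13 higher and 5 lower.

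With the replicate block the counts were 27 for genotype at 20 weeks (Col6a3 gained, Col25a1 lost), 16 in cardiomyocytes (Col4a1 lost), 15 in non-myocytes (Col6a5 lost), 3 for JQ1 in wild type at 8 weeks (Col15a1 lost), 21 for the comparison of ages (Col4a2 gained) and 23 for PLNR9C-JQ1 against wild type-vehicle at 20 weeks. With the pairing of non-myocytes and of fractions, given above, 17 and 31 were called. Depth limits chains near 1 CPM or below, such as Col8a2, Col9a2 and Col11a1 in wild type.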
